A study of Rattus norvegicus with 2 samples.

Results

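Conventional dendritic cells were examined in single-cell RNA sequencing of rat lung, as barcodes selected on a set of 10 marker transcripts. A barcode (the tag of 1 droplet) was counted as a dendritic cell when it held at least 200 genes and unique molecular identifiers (UMIs, 1 per captured RNA molecule) of at least 2 of Flt3, Xcr1, Clec9a, Clec10a, Cd209a, Zbtb46, Batf3, Ccr7, Fscn1 and Ccl22. Those markers together had to make up at least 0.1% of its UMIs, and it could hold no UMI of the T cell genes Cd3e, Cd3d and Cd3g, the B cell genes Cd79a and Ms4a1 or the plasmacytoid gene Siglech. The rule was met by 61 of 12450 barcodes of the explosion library and 46 of 21096 barcodes of the control library, 107 of 33546 in all. These 107 barcodes are called members below. The markers chose the members, so their levels are given as a description.

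The study compared lungs of rats exposed to a gas explosion with lungs of unexposed control rats, both kept specific-pathogen-free, with 1 library of dissociated lung cells per group. Strain, sex, age, the time after exposure and the number of animals in a library are not given in the sources used here. With 1 library per group, a difference between explosion and control was not checked by replicates and is given without a test. Ranges in parentheses after a share or ratio are exact 95% intervals, for counting error only.

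Conventional dendritic cells take up antigen in the airway and lung, carry it to lymph nodes and display its peptides on MHC class II molecules to T cells. Type 1 cells, marked by Xcr1 and Clec9a, depend on the transcription factors Irf8 and Batf3 and present antigen of dead cells on MHC class I. Type 2 cells, marked in these data by Clec10a, mainly serve CD4 T cells, and both kinds switch to a mature state with Ccr7, Fscn1 and Ccl22 when they migrate.

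The libraries differed in depth, with 9017416 UMIs in the explosion and 139486248 UMIs in the control library. Over barcodes with at least 200 genes, the median UMI total was 546 for the explosion library and 4920.5 for the control library. The median over members was 1044 UMIs (lowest 242, highest 2298) for the explosion library and 2829 UMIs (lowest 503, highest 10741) for the control library, and 64820 and 155683 UMIs were summed over explosion and control members. The libraries shared 85 barcode sequences, of which 1 belonged to an explosion member and 0 to a control member. Scrublet called 4 explosion members and 0 control members doublets. Transcripts of the club cell gene Scgb1a1 were found in 61 of 61 explosion members and 46 of 46 control members, at 5184 and 20542 CPM (UMIs of a gene per 1000000 UMIs) in explosion and control members. Whether they came from free RNA was not tested.

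The marker share in the rule removed barcodes of the control library only. At least 2 markers were found in 67 explosion barcodes and 365 control barcodes. The share minimum then left out 0 explosion barcodes and 311 control barcodes, which had a median of 8023 UMIs, and the excluded genes left out 6 explosion and 8 control barcodes. Of the control barcodes below the share, 197 held no excluded gene, and 45 of these took at least 1% of their UMIs from the 5 class II genes described below, as most members did; Scrublet called 9 of the 45 doublets. The members nearest the limit had marker shares of 0.109%, 0.114% and 0.121% in the explosion library and 0.101%, 0.105% and 0.110% in the control library. The nearest barcodes outside it, all of the control library, had 0.0987%, 0.0984% and 0.0943%.

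**Figure D1:**
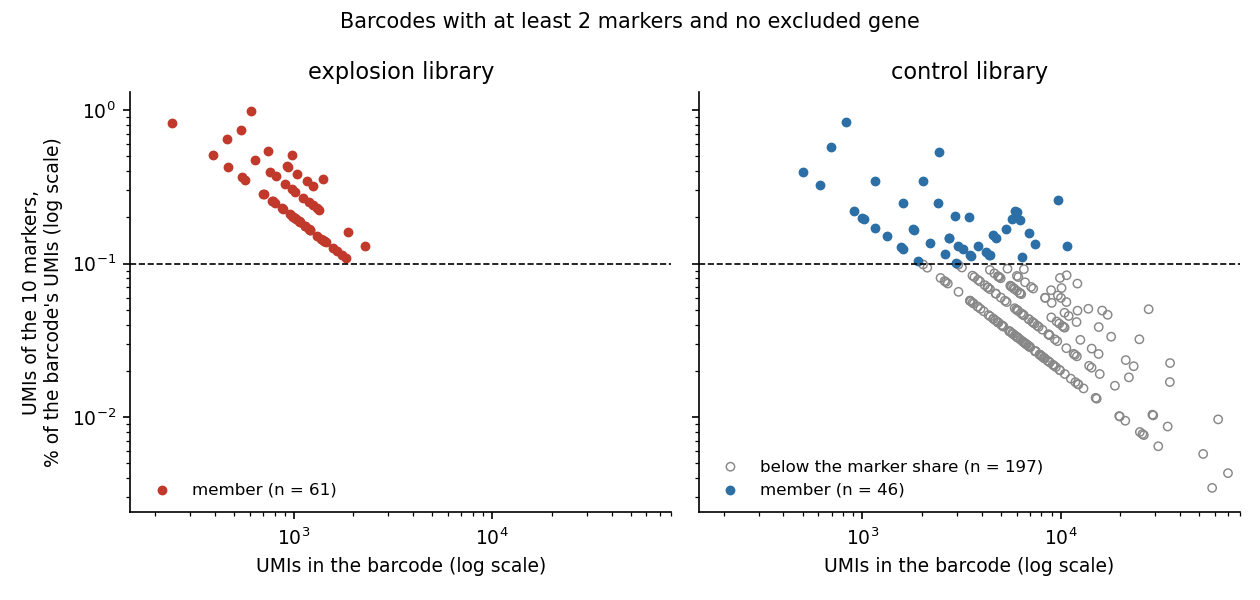
Each point is a barcode with UMIs of at least 2 of the 10 markers and of no excluded gene, with its total UMIs on the x axis and the markers' percentage of those UMIs on the y axis, both on log scales; the dashed line is the 0.1% limit. All 61 explosion points lie above the line, while 46 control points lie above it and 197 below it.

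Members made up 0.490% of explosion barcodes (0.375 to 0.629) and 0.218% of control barcodes (0.160 to 0.291), a difference of 0.272 percentage points. With every barcode thinned to 500 UMIs before the rule was applied, 23 of 6744 explosion barcodes (0.341%) and 12 of 21096 control barcodes (0.0569%) met it, and 5706 shallower explosion barcodes were left out. Over 11 thinning draws, 14 to 27 explosion and 9 to 21 control barcodes met the rule. The order depended on the marker share. When the share minimum was dropped and class II was required at 1% of UMIs, an alternative added after the data were seen, 46 explosion barcodes (0.369%) and 83 control barcodes (0.393%) qualified. The share of dendritic cells therefore cannot be told apart from the depth of the libraries by this rule.

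Few transcripts carried the selection. Members held a median of 2 marker UMIs in the explosion library and 4 in the control library, and 37 of 61 explosion members and 10 of 46 control members held 2 marker UMIs in total. Flt3, the receptor for the growth factor that dendritic cell precursors need, was found in 36 explosion and 24 control members, against 1.61% and 0.96% of the other explosion and control barcodes. Clec10a, a galactose-binding lectin of type 2 cells, was found in 30 explosion and 24 control members. Clec9a, a receptor for dead cells, was found in 16 explosion and 12 control members, and Xcr1, the chemokine receptor of type 1 cells, in 11 explosion and 5 control members.

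Batf3 was spread differently. It was found in 13 of 61 explosion members and 35 of 46 control members, and in 0.969% of other explosion barcodes and 26.6% of other control barcodes, so it was a weaker marker in the control library. Zbtb46, a transcription factor of conventional dendritic cells, was found in 14 explosion and 6 control members. The mature markers were rare: Fscn1, which bundles actin, in 7 explosion and 4 control members, Ccl22, a chemokine that attracts T cells, in 3 explosion and 4 control members, and Ccr7, the lymph node homing receptor, in 0 explosion members and 1 control member. A single control member held 22 of that library's 32 member UMIs of Ccl22. Cd209a had no UMI in any member. The most frequent pair was Flt3 with Clec10a in the explosion library (14 members) and Clec10a with Batf3 in the control library (9 members).

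MHC class II, which the rule did not use, was present in most members. The invariant chain Cd74, which guards the peptide groove, and the class II chains RT1-Da, RT1-Db1, RT1-Ba and RT1-Bb (RT1 is the rat MHC, D and B its class II molecules, a and b their chains) together took a median of 1.97% of UMIs in explosion members and 3.20% in control members. The share was at least 1% in 46 of 61 explosion members and 38 of 46 control members. It had a gap: the lowest members above 1% had 1.09% in the explosion library and 1.13% in the control library, and the highest below it had 0.493% and 0.196% in the explosion and control libraries. No class II UMI at all was found in 9 explosion and 6 control members. The limit of 1% was placed in this gap after the values were seen.

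Among barcodes with at least 2 of the T cell genes, which should lack class II and had medians of 578.5 UMIs in the explosion library and 2217 UMIs in the control library, 1 of 156 explosion and 5 of 1415 control barcodes reached 1%. Class II is also made by B cells and macrophages. Barcodes with at least 2 of the B cell genes Cd79a, Cd79b and Ms4a1 had median class II shares of 1.24% in the explosion library and 1.62% in the control library. Barcodes with at least 2 of the macrophage genes C1qa, C1qb, C1qc and Cd163 had medians of 1.04% in the explosion library and 0.765% in the control library. Members thus had the highest median of these 3 kinds of barcode in both libraries, in a description with no test, and the other gates carried no minimum marker share.

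**Figure D2:**
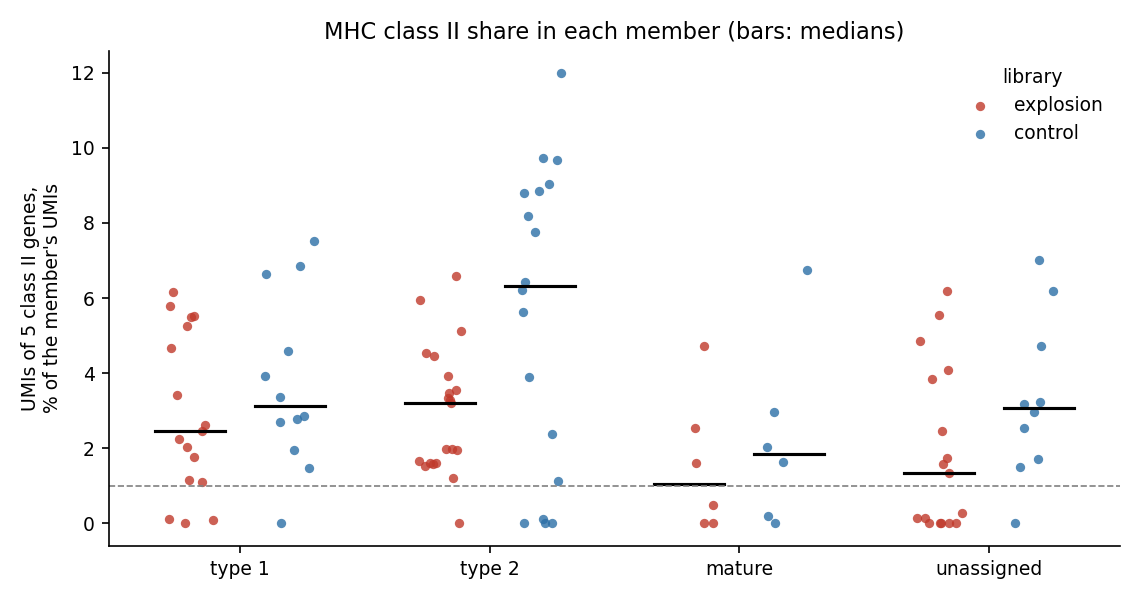
The percentage of UMIs from Cd74, RT1-Da, RT1-Db1, RT1-Ba and RT1-Bb in each of the 107 members, grouped by subset, with the explosion library (61 members) left of the control library (46 members) in each group; short bars are medians and the dashed line is 1%. Points below the line include 15 explosion and 8 control members, and the highest member, a control type 2 cell, reached 12.0%.

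Summed over the 23 members with little class II, transcripts of some other cell types were higher, and part of these members carried most of them. In the explosion library, a list of 8 fibroblast genes reached 6386 CPM in the 15 members with class II below 1% and 607 CPM in the 46 others, and a list of 9 mesothelial genes (mesothelium lines the lung surface) reached 3984 and 230 CPM in the same low and high members. UMIs of 5 of the 8 fibroblast and 7 of the 9 mesothelial genes were found in the low members. At least 3 UMIs of these lists together were found in 6 of the 15 and in 3 of the 46. The low explosion members were mostly picked by Flt3 with Zbtb46 (5 members) or Clec10a with Fscn1 (5 members). In the control library, 14 macrophage genes reached 11933 CPM in the 8 low members and 1540 CPM in the 38 others, with 128 of the 169 UMIs of the low members in 1 barcode, while fibroblast genes had 1 UMI and mesothelial genes 0 UMIs in the low members. Markers of B and plasma cells, endothelium, neutrophils and mast cells had at most 4 UMIs each in the low members of either library. Plasmacytoid markers had 15 UMIs in the low members of each library, and T and NK cell markers 12 UMIs in the explosion and 5 UMIs in the control low members. Class II thus reached 1% of UMIs in 84 of the 107 members, but this does not set them apart from macrophages: 61 of 121 explosion and 54 of 127 control barcodes of a C1q macrophage gate also reached it, and 4 of the 46 explosion and 15 of the 38 control members with class II at 1% held at least 3 macrophage UMIs. A list of 12 monocyte genes had UMIs in 40 of these 46 explosion and 33 of these 38 control members. At least 3 UMIs of it were in 22 of the explosion and 25 of the control ones. It reached 3749 CPM in high and 3105 CPM in low explosion members, and 2381 and 2330 CPM in high and low control members. Several results below are also given without the 23 members below 1%.

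**Figure D3:**
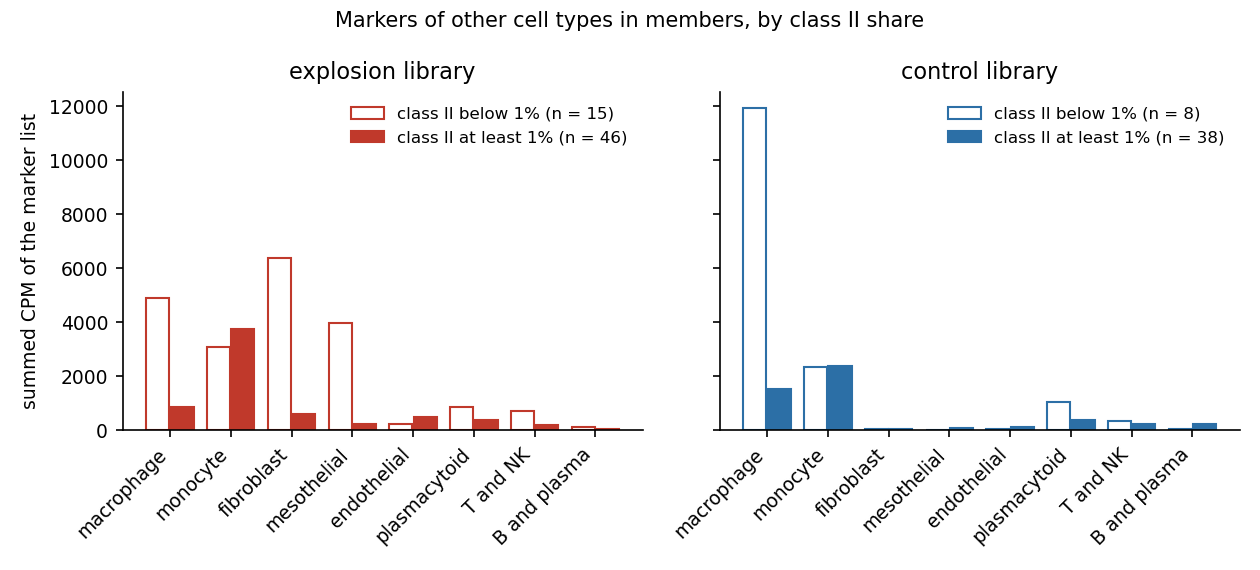
Summed CPM of 8 marker lists of other cell types in members with class II below 1% of UMIs (open bars) and at least 1% (filled bars), for the explosion library (15 and 46 members) and the control library (8 and 38 members). Fibroblast and mesothelial markers stand out in the low explosion members and macrophage markers in the low members of both libraries.

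Genes beyond the rule were named by the smaller of their ratios, in the 2 libraries, of members over the other barcodes of the same library. Slamf7, a surface receptor of the SLAM family, had 632 CPM in explosion members against 18.2 CPM in other explosion barcodes, and 418 CPM in control members against 4.0 CPM in other control barcodes. Slpi, a secreted inhibitor of leukocyte proteases, had 1280 CPM in explosion members and 71.0 CPM in other explosion barcodes, and 3526 CPM in control members and 23.3 CPM in other control barcodes. The Slpi transcripts sat in 17 explosion and 21 control members, with 119 of 549 control UMIs in 1 barcode. In T cell barcodes Slpi had 38.8 CPM in the explosion library and 9.0 CPM in the control library. Macrophage barcodes had more Slpi, 180 CPM in the explosion and 274 CPM in the control library. Monocyte barcodes, which held both Fcnb and Vcan, had 346 CPM in the explosion and 284 CPM in the control library.

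Cst3, which encodes the protease inhibitor cystatin C, was 11.6-fold higher in members than in other explosion barcodes and 33.1-fold higher than in other control barcodes. Nr4a2, an orphan nuclear receptor induced early after stimulation, was 7.85-fold and 17.0-fold higher than in other explosion and other control barcodes. Wdfy4, needed in mice for type 1 cells to present cell-bound antigen on class I, was 4.79-fold and 8.96-fold higher than in other explosion and other control barcodes. The same rule named the class II genes RT1-Db1, RT1-Ba, RT1-Da, Cd74 and RT1-DMb, and Tbc1d4, Septin6, Basp1, Ap1s2 and Tmsb10, at 3.36-fold to 11.8-fold in the explosion library and 4.99-fold to 108-fold in the control library. Single gates came closer for some genes. In explosion members and macrophage barcodes, Basp1 had 494 and 434 CPM and RT1-DMb 633 and 539 CPM. Ap1s2 had 494 CPM in explosion members and 451 CPM in explosion monocyte barcodes. Septin6 had 324 CPM in explosion members and 300 CPM in explosion T cell barcodes. In the control library the same pairs were 552 and 263, 546 and 292, 340 and 243, and 141 and 91.1 CPM.

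Subsets were assigned by the kind of marker with the most UMIs: Xcr1 and Clec9a for type 1, Clec10a and Cd209a for type 2, and Ccr7, Fscn1 and Ccl22 for mature cells, with ties left unassigned. Type 1 held 17 explosion members (27.9%, 17.1 to 40.8) and 12 control members (26.1%, 14.3 to 41.1). Type 2 held 21 explosion members (34.4%) and 18 control members (39.1%). Members assigned as mature numbered 6 in each library, and 17 explosion and 10 control members were unassigned. The intervals of the shares overlapped widely, so a difference in makeup was not detectable at these numbers. Class II took a median of 2.47% of UMIs in explosion and 3.11% in control type 1 members, and 3.21% in explosion and 6.32% in control type 2 members. In members assigned as mature the medians were lower, 1.05% in the explosion and 1.83% in the control library. Only 3 of the 6 explosion and 4 of the 6 control ones reached 1%. The name mature thus rests on few marker UMIs and not on class II.

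Several genes known from type 1 cells, none of them in the rule, had higher CPM in type 1 than in type 2 members of both libraries. Irf8 had 31 UMIs in 11 of 17 type 1 members and 3 UMIs in 1 of 21 type 2 members of the explosion library, an 11.3-fold higher CPM (3.51 to 57.6). In the control library it had 73 UMIs in 10 of 12 type 1 members and 2 UMIs in 1 of 18 type 2 members, a 28.7-fold higher CPM (7.66 to 241). Both libraries thus put nearly all Irf8 transcripts of these subsets in the barcodes picked by Xcr1 and Clec9a. Other type 1 genes did not follow: Tlr3 had 3 UMIs in type 1 and 3 in type 2 members of the explosion library and 5 and 5 UMIs in those of the control library, Id2 had 0 and 4 UMIs in the explosion and 9 and 15 in the control library, and Itgae had 0 and 1 UMIs in the explosion and 5 and 2 in the control library.

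Gcsam, a signalling adaptor known from germinal centre B cells, had 12 UMIs in type 1 and 0 UMIs in type 2 members of the explosion library, and 17 and 0 UMIs in type 1 and type 2 members of the control library. The adhesion molecule Cadm1 had 8 UMIs in type 1 and 1 UMI in type 2 members of the explosion library, and 6 and 0 UMIs in those of the control library. Rab7b, a GTPase of late endosomes, had 8 UMIs in type 1 and 0 UMIs in type 2 members of the explosion library, and 5 and 0 UMIs in those of the control library. Wdfy4 was 3.70-fold higher in type 1 members (1.31 to 12.8) in the explosion library and 2.85-fold higher (1.27 to 7.21) in the control library. The lysosomal thioesterase gene Ppt1 was 4.72-fold higher (1.30 to 25.8) and 2.45-fold higher (1.07 to 6.29) in the explosion and control libraries. Naaa, which encodes a lysosomal acid amidase, was 10.9-fold higher (1.55 to 473) in the explosion library and 1.73-fold higher (0.784 to 4.09) in the control library, where the interval included no difference.

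Slpi and Cst3 also leaned to type 1. Slpi had 38 UMIs in type 1 and 12 UMIs in type 2 members of the explosion library, and 369 and 12 UMIs in those of the control library, ratios of 3.45 (1.77 to 7.25) and 24.1 (13.7 to 47.2) in the explosion and control libraries. Cst3 was 4.07-fold higher in type 1 members (2.99 to 5.62) in the explosion library and 1.54-fold higher (1.35 to 1.75) in the control library.

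Type 2 members carried more of the colony-stimulating factor receptor gene Csf1r, with 2 UMIs in type 1 and 17 in type 2 members of the explosion library and 1 and 17 UMIs in those of the control library. The coreceptor gene Cd4 had 3 UMIs in type 1 and 10 in type 2 members of the explosion library, and 0 and 26 UMIs in those of the control library. The C-type lectin gene Clec4a3 had 0 UMIs in type 1 and 6 in type 2 members of the explosion library, and 2 and 12 UMIs in those of the control library. These 3 genes were named after their values were seen, and the type 1 over type 2 ratio of Cd4 in the explosion library, 0.33 (0.06 to 1.27), does not exclude equal levels. A list of 17 type 2 genes, with Csf1r and Cd4 among them, had 3833 CPM in explosion type 2 members. Explosion macrophage barcodes had 5000 CPM and explosion monocyte barcodes 3795 CPM, so the list did not set these members apart from them. In the control library the values were 2866, 1524 and 2107 CPM. Clec7a and Mrc1, lectin receptors, had type 1 over type 2 ratios of 2.40 (0.77 to 8.80) and 2.18 (0.68 to 8.13) in the explosion library, but of 0.11 (0.03 to 0.28) and 0.38 (0.17 to 0.80) in the control library. The complement gene C1qa, a macrophage marker, had 1 UMI in type 1 and 2 in type 2 members of the explosion library, but 3 and 96 UMIs in those of the control library, where 8 of 18 type 2 members held it. Its part in the type 2 values of the control library was not tested.

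**Figure D4:**
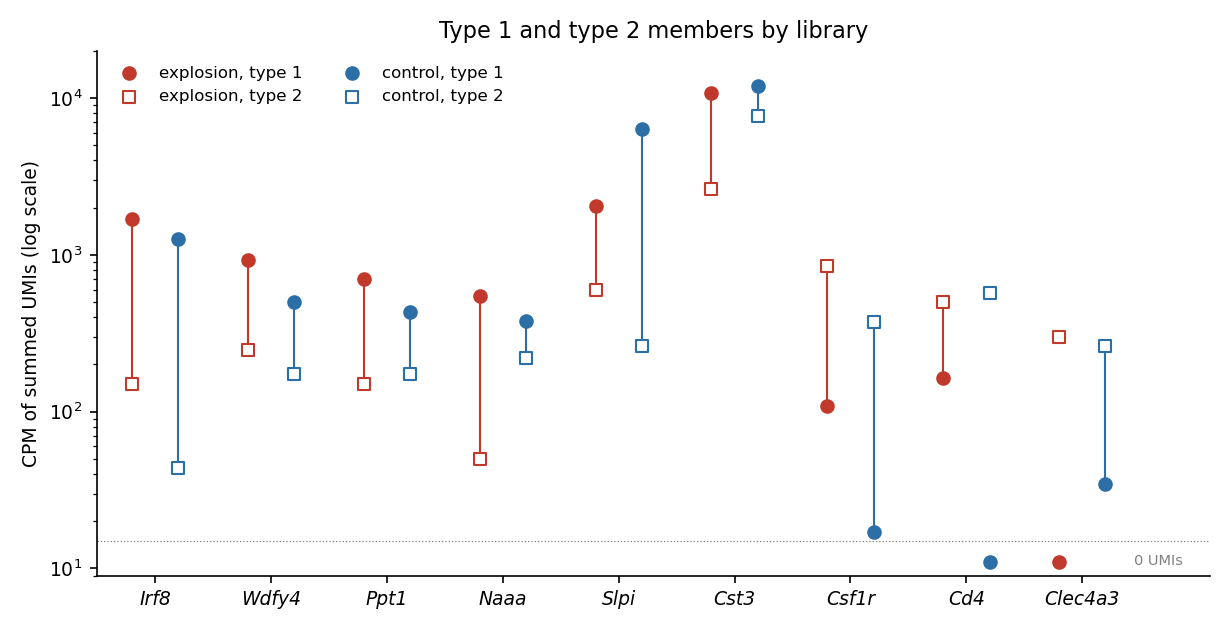
CPM of UMIs summed over type 1 members (filled circles) and type 2 members (open squares), on a log axis, for the explosion library (17 and 21 members, left of each pair) and the control library (12 and 18 members, right); points under the dotted line had 0 UMIs. Irf8 to Cst3 are higher in type 1 and Csf1r to Clec4a3 in type 2 members of both libraries.

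The members of the 2 libraries were then compared gene by gene, as the CPM in explosion members over the CPM in control members. Of 1015 genes with at least 20 UMIs where they were higher, 183 (18.0%) were past 2-fold higher and 334 (32.9%) past 2-fold lower in explosion members. The median of these genes was -0.42 on the log2 scale, and the filter favours lower calls because the control sum is deeper: over the 433 genes that reached 20 UMIs in each library it was 0.35. With CPM scaled to the median gene, which lowers every log2 ratio by 0.34, 122 genes were higher and 442 lower. When the 20 UMIs were asked of the libraries' total instead, 481 were higher and 358 lower. These shares are the background for the counts that follow.

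The 5 class II genes above were each lower in explosion members. In all other barcodes, Cd74 was 7.46-fold, RT1-Ba 6.64-fold, RT1-Da 6.32-fold and RT1-Db1 3.13-fold higher in the explosion library. RT1-Bb was 1.43-fold lower there. Of 15 genes of class II presentation, 11 were measured, 0 were past 2-fold higher and 3 past 2-fold lower (RT1-Bb, RT1-Db1 and RT1-DMa), a share below the 32.9% of all genes, with a median log2 ratio of -0.79 beside -0.42 over all genes. Cd74 had 724 UMIs (11169 CPM) in explosion members and 2189 UMIs (14061 CPM) in control members, a 1.26-fold lower level (1.16 to 1.37). RT1-Da had 4998 CPM in explosion and 9365 CPM in control members, 1.87-fold lower (1.66 to 2.12). RT1-Db1, its partner chain, had 3903 CPM in explosion and 11337 CPM in control members, 2.90-fold lower (2.54 to 3.33). In members with class II at 1% of UMIs the log2 ratio was -0.05 for Cd74, -0.60 for RT1-Da and -1.24 for RT1-Db1. Since that split used these genes themselves, these values are a description.

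RT1-Bb stood apart from its partner chain. RT1-Ba had 219 UMIs in 45 explosion members (3379 CPM) and 768 UMIs in 38 control members (4933 CPM), 1.46-fold lower (1.25 to 1.70). RT1-Bb had 15 UMIs in 13 explosion members (231 CPM) and 626 UMIs in 36 control members (4021 CPM), 17.4-fold lower (10.5 to 31.2). All 15 and all 626 UMIs were in members with class II at 1% of UMIs. RT1-Bb is itself among the genes of that split, so this is a description. After thinning members to 500 UMIs, 6 explosion and 79 control UMIs of RT1-Bb remained. RT1-Bb was also lower outside the members. It was 5.98-fold lower (2.33 to 22.0, from 4 explosion and 1253 control UMIs) in the explosion B cell barcodes and 2.45-fold lower (1.47 to 4.43) in the explosion macrophage barcodes than in those of the control library, and 1.43-fold lower (1.25 to 1.65) in all other barcodes, while RT1-Ba was 1.86-fold higher in the explosion B cell barcodes and 2.78-fold higher in the explosion macrophage barcodes. These genes belong to a multigene family, and the treatment of reads that match several of them was not given in the sources used here.

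**Figure D5:**
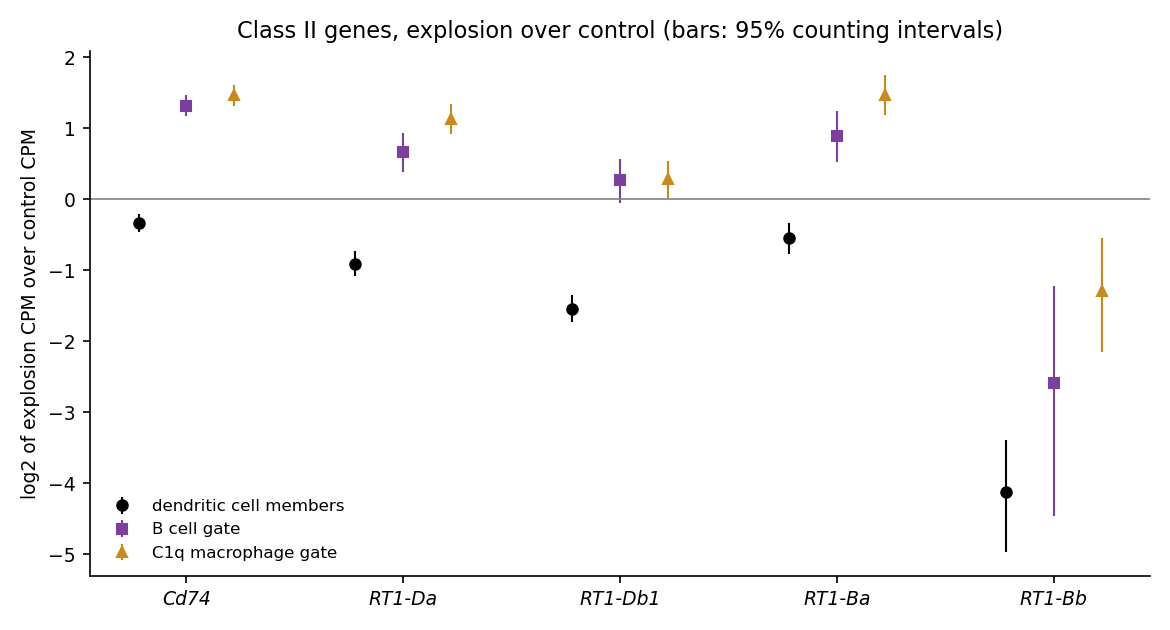
Log2 of the explosion CPM over the control CPM for 5 class II genes in dendritic cell members, B cell barcodes and macrophage barcodes, with 95% counting intervals (that of RT1-Db1 in B cell barcodes includes 0). Members lie below 0 for all 5 genes, B cell and macrophage barcodes lie above 0 for Cd74, RT1-Da, RT1-Db1 and RT1-Ba, and all 3 kinds lie below 0 for RT1-Bb.

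Class II promoters share a module of short boxes read by a common set of factors under the coactivator Ciita. The promoters of the 4 chains, from RefSeq (assembly GRCr8, 250 bases before to 50 after the gene start), are shown because these chains share their module yet differed in the size of the gap between libraries. All lie on chromosome 20: RT1-Da at chr20:4515165-4515464 (plus strand), RT1-Db1 at chr20:4560113-4560412 (minus strand), RT1-Ba at chr20:4576807-4577106 (plus strand) and RT1-Bb at chr20:4604069-4604368 (minus strand). They are written 5′ to 3′ on the gene's strand, and capitals mark ATTGG (the core of the Y box) and AGCAAC (letters of the X box) on either strand.
RT1-Da: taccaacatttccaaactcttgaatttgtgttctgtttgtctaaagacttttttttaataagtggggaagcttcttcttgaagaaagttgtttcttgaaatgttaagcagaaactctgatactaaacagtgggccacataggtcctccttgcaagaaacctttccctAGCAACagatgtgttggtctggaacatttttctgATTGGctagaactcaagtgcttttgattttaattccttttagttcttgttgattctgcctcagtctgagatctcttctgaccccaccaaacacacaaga
RT1-Db1: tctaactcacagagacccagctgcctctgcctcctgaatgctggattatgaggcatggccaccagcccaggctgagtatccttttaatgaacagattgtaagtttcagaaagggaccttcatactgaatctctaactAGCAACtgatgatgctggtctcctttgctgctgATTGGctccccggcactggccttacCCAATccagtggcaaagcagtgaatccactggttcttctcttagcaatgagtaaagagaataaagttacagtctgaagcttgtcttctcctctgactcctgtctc
RT1-Ba: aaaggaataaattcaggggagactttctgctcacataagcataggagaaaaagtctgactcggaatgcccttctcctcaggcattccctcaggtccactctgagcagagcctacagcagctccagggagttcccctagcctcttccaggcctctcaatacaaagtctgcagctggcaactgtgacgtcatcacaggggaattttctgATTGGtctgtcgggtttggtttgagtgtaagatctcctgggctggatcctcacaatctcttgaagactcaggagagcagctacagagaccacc
RT1-Bb: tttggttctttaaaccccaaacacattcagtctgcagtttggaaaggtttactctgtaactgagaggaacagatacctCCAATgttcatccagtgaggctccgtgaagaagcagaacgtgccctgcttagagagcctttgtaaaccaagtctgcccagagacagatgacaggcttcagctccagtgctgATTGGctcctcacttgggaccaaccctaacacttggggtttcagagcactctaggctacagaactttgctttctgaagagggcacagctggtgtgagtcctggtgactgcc
ATTGG began 49 bases before the start of RT1-Da, 80 before RT1-Db1, 43 before RT1-Ba and 61 before RT1-Bb. The X box letters followed by the Y box core at the spacing searched (15 to 35 bases, either strand) was in RT1-Da and RT1-Db1 and was not in these windows of RT1-Ba and RT1-Bb. Of 15 class II presentation genes, 13 were matched, 11 of them held ATTGG on either strand and 5 held the pair. Of all 33469 promoters of the same length, 37.5% held ATTGG, 14.7% held the X box letters and 0.326% held the pair. A match is a description of letters and not a binding site.

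The other parts of the class II pathway were mixed. RT1-DMa, a chain of the peptide exchange factor DM, had 16 UMIs in explosion and 116 UMIs in control members, a ratio of 0.33 (0.18 to 0.56), while its partner RT1-DMb had 41 and 85 UMIs in explosion and control members, a ratio of 1.16 (0.78 to 1.70), with the opposite direction after thinning members to 500 UMIs (log2 ratio -0.66). Ctss, the protease that trims the invariant chain, had a ratio of 0.57 (0.36 to 0.87), Ifi30, a thiol reductase of the endosome, 0.56 (0.40 to 0.78), and Cst3 0.65 (0.58 to 0.73). Ciita, the master regulator of class II, had 14 UMIs in 11 explosion members and 20 UMIs in 15 control members, a ratio of 1.68 (0.79 to 3.50).

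On the class I side, 0 of 8 measured genes were past 2-fold higher and 3 past 2-fold lower, near the background. These were the immunoproteasome subunit Psmb8, with 16 UMIs in explosion and 106 UMIs in control members (ratio 0.36, 0.20 to 0.62), its fellow subunit Psmb9 (0.39) and the proteasome activator Psme1 (0.44). The chaperones Calr (1.85, 1.34 to 2.55) and Canx (1.67, 1.12 to 2.48) were higher in explosion members but below 2-fold.

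Of the type 1 list, 4 of 17 genes were measured and none passed 2-fold: Irf8 had a ratio of 1.09 (0.74 to 1.57), Wdfy4 1.57, Naaa 0.88 and Ppt1 1.01. Of the type 2 list, 3 of 17 were measured and 2 were past 2-fold higher, beside 18.0% of all genes. The whole list had 2546 CPM in explosion and 1644 CPM in control members. It had 2292 CPM in other explosion and 764 CPM in other control barcodes, so it was also higher outside the members. Csf1r had 29 UMIs in explosion and 27 UMIs in control members (ratio 2.58, 1.47 to 4.53) and the transcription factor Klf4 had 41 and 40 UMIs in explosion and control members (2.46, 1.55 to 3.90). Cd4 had a ratio of 1.14. Of 25 mature genes, 2 were measured, and neither the maturation antigen Cd83 (0.83, 0.47 to 1.42) nor the NF-kB subunit Rel (1.60, 1.11 to 2.29) passed 2-fold.

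Some transcription factor genes and a few early response genes were past 2-fold higher in explosion members. Runx3, a factor that shapes dendritic cell responses to growth factors in mice, had 26 UMIs in 20 explosion members and 12 UMIs in 9 control members, a 5.20-fold higher level (2.53 to 11.3). Nr4a1, an orphan nuclear receptor induced within minutes of stimulation, had 33 UMIs in 25 explosion members and 16 UMIs in 10 control members, 4.95-fold higher (2.65 to 9.64). Their levels in all other barcodes were 12.5-fold and 14.3-fold higher in the explosion library for Runx3 and Nr4a1, so both were also higher outside the members. Of 6 measured transcription factors, 3 were past 2-fold higher, Runx3, Klf4 and Cebpb, beside 18.0% of all genes. The whole list of 20 had 3996 CPM in explosion and 2524 CPM in control members. It had 4080 CPM in other explosion and 1910 CPM in other control barcodes, so it too was higher outside the members. Of 12 immediate early genes, 2 were past 2-fold higher, Nr4a1 and the mRNA decay factor gene Zfp36 (2.80, 1.87 to 4.21), a share near the background. Fos had a ratio of 0.89 and Fosb of 1.04.

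The feedback genes of NF-kB split. The deubiquitinase gene Tnfaip3 had 45 UMIs in explosion and 24 UMIs in control members (4.50-fold higher, 2.69 to 7.73), Nfkbiz, which encodes an atypical inhibitor of NF-kB, had 23 and 12 UMIs (4.6-fold higher, 2.2 to 10.2) and the inhibitor Nfkbia 54 and 59 UMIs (2.2-fold higher, 1.49 to 3.23) in explosion and control members. The survival gene Bcl2a1, with 25 UMIs in explosion and 159 UMIs in control members, had a ratio of 0.38 (0.24 to 0.58), and Gadd45b one of 0.32 (0.10 to 0.83). Of 7 measured genes, 3 were thus past 2-fold higher and 2 past 2-fold lower, beside 18.0% and 32.9% of all genes. The share of lower genes was near that background. In other barcodes the ratios were 7.99 for Tnfaip3, 8.58 for Nfkbiz and 0.58 for Bcl2a1.

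Cytokine, receptor and surface molecule genes were mostly too sparse to measure. Of 24 cytokines and chemokines, 3 were measured: Il1b had a ratio of 1.02 (0.69 to 1.48), Cxcl2 0.73 (0.45 to 1.14) and Il18 0.49 (0.24 to 0.92), the last past 2-fold lower. Of 13 costimulatory genes, 2 were measured and neither passed 2-fold, Cd48 at 0.69 and Icoslg at 0.72. Of 18 chemokine and growth factor receptors, Csf1r was past 2-fold higher and the interferon gamma receptor gene Ifngr1 had 1.05. Of 25 pattern recognition receptors, 2 were measured: the mannose receptor gene Mrc1 was 2.17-fold higher (1.35 to 3.47) and the fungal glucan receptor gene Clec7a had 1.06. Of 21 interferon response genes, Ifi27 at 0.90 and Bst2 at 0.86 were measured.

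Subunits of the respiratory chain were lower in explosion members. Of 24 genes, 23 were measured, 0 were past 2-fold higher and 15 past 2-fold lower, above the background share of 32.9%, with a median log2 ratio of -1.19. Cox8a had 10 UMIs in explosion and 101 UMIs in control members (ratio 0.24, 0.11 to 0.46), Cox5b 12 and 113 UMIs (0.26, 0.13 to 0.46) and Ndufa13 5 and 57 UMIs (0.21, 0.07 to 0.52). Atp5f1b went the other way, with a ratio of 1.62 (1.11 to 2.35). All other barcodes had ratios of 0.27 for Cox8a, 0.35 for Cox5b, 0.27 for Ndufa13 and 1.56 for Atp5f1b, near those of the members.

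Of 19 genes of cell movement, 15 were measured, 3 were past 2-fold higher and 3 past 2-fold lower, close to the background share of higher genes and under the 32.9% of lower genes. The actin-binding thymosins Tmsb10 (ratio 0.19, 0.16 to 0.22) and Tmsb4x (0.44, 0.41 to 0.47) and Actg1 (0.26, 0.05 to 0.83) were lower, and the actin regulator Dock2 (3.20, 1.75 to 5.93), the adhesion receptor Cd44 (2.48, 1.45 to 4.24) and the integrin gene Itgb2 (2.40, 1.36 to 4.25) were higher. Of 11 heat shock genes, 5 were measured and none passed 2-fold. Of 17 cycling genes, 4 were measured and 2 were lower, Hmgb2 at 0.41 and Stmn1 at 0.48. With CPM scaled to the median gene, the higher values of Klf4, Cebpb, Mrc1, Nfkbia, Itgb2 and Cd44 fell under 2-fold.

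The genes with the largest ratios over the whole table were mostly not dendritic cell genes. Ccdc80, a secreted matrix protein gene, had 49 UMIs in explosion and 0 UMIs in control members, at least 39.2-fold higher against the limit that a count of 0 allows (3 UMIs), and Gpc3, a cell surface proteoglycan gene, had 43 and 0 UMIs in explosion and control members, at least 34.4-fold higher. Of these UMIs 41 of 49 for Ccdc80 and 35 of 43 for Gpc3 were in the 15 explosion members with little class II. The collagen genes Col3a1 (73 UMIs in explosion and 3 UMIs in control members, ratio 58.4, 19.2 to 290), Col1a1 and Col1a2, the mesothelial gene Lrrn4, the complement gene C4a, the semaphorin gene Sema3c and the water channel gene Aqp1 made up the rest of the highest 10 with Fcnb. In members with class II at 1% of UMIs, Col3a1 had 14 UMIs in the explosion and 2 UMIs in the control library.

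Fcnb, which encodes a ficolin of monocytes and is not a dendritic cell gene either, differed from the others in which members held it. It had 25 UMIs in 7 explosion members and 0 UMIs in control members, at least 20.0-fold higher, and all 25 UMIs were in members with class II at 1% of UMIs. In other barcodes Fcnb had 329 CPM in the explosion and 13.5 CPM in the control library. Of the monocyte list, 5 of 12 genes were measured: Fcnb, Nr4a1 and Fn1 (44 UMIs in explosion and 26 UMIs in control members, ratio 4.06, of which 11 and 0 UMIs were in explosion and control members with class II at 1% of UMIs) were past 2-fold higher, Ly86 (10 and 70 UMIs in explosion and control members, ratio 0.34) was past 2-fold lower, and Plac8 had 0.94. Of the macrophage list, 5 of 14 were measured, with Mrc1 higher, C1qa (10 and 105 UMIs in explosion and control members, ratio 0.23), C1qb (0.28) and C1qc (0.38) past 2-fold lower, and Apoe at 0.94.

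The 10 lowest ratios included airway genes. Scgb3a1 and Wfdc2, made by airway epithelium, had 0 and 2 UMIs in explosion members and 89 and 48 UMIs in control members, and in other barcodes Scgb3a1 had 113 CPM in the explosion and 9655 CPM in the control library. RT1-Bb is described above. Glod4 (0 UMIs in explosion and 24 UMIs in control members, at least 3.33-fold lower), Mrps14 (0 and 22, at least 3.05-fold lower), Hsd17b10 (0 and 20, at least 2.78-fold lower), Ndufc1, Tmem160, H2aj and Ebna1bp2 completed them. H2aj, a histone variant gene, had 2 UMIs in explosion and 62 UMIs in control members, a 12.9-fold lower level (3.43 to 109).

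When the same rule was applied to the 84 members with class II at 1% of UMIs, a choice made after the data were seen, 100 genes were past 2-fold higher and 318 lower. Psme1 (ratio 0.51), Il18 (0.62), Cox6a1 (0.52) and Stmn1 (0.59) were then no longer past 2-fold lower, and Ndufa4 (0.44) and Ndufb11 (0.31) were. Cxcl2 had a ratio of 1.30 (0.70 to 2.32) in these members, beside 0.73 over all members. The highest 10 were then Fcnb, Trnv, Sftpc, C4a, Rn45s, Slfn4, Srsf11, Arrdc3, Usf2 and Prpf38b. Slfn4, a Schlafen family gene, had 30 UMIs in 18 explosion members and 11 UMIs in 9 control members, an 8.08-fold higher level (3.94 to 17.9), and Arrdc3, an arrestin family gene, had 20 UMIs in 17 explosion members and 9 UMIs in 7 control members, 6.59-fold higher (2.87 to 16.4). In other barcodes the ratios were 16.5 for Slfn4 and 7.0 for Arrdc3. For Sftpc, the surfactant protein gene of alveolar type 2 cells, 93 of 98 explosion UMIs were in 1 member. Col1a1 (10 UMIs in explosion and 1 UMI in control members) and Col3a1 (14 and 2 UMIs in explosion and control members) fell under the 20 UMI minimum here, at ratios of 29.6 (4.22 to 1286) and 20.7 (4.76 to 188). C1qa, with 2 UMIs in explosion and 83 UMIs in control members, was among the lowest 10.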

How the data were processed

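Lung cells of 1 explosion and 1 control library were profiled with 10x Chromium 3' v3 chemistry, per the labels' protocols. The deposited matrices hold UMI counts per gene and barcode, written by cellranger 7.1.0 per the file headers and not normalized. Per the submitters' processing notes, the tools were Cell Ranger 6.1.1 and bcl2fastq 2.20, and rn6 and mRatBN7.2 are both named as builds. Which build and annotation served the counting was not given in the sources used here. Matrices hold called cells only, so a level of free RNA from empty droplets was not computed.

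The members, gene lists and other settings were chosen with earlier results of these data known. UMIs were summed over members per library. CPM is a gene's sum per 1000000 UMIs, and ratios have exact conditional intervals of 2 Poisson counts (scipy 1.17.1). Shares have exact Clopper-Pearson intervals. For log2 values, 0.5 UMIs were added to each sum. A gene was measured with at least 20 UMIs in the library where its CPM was higher. Doublets were called with Scrublet (scanpy 1.11.5, expected rate in proportion to the number of barcodes) and kept, since removal is among the alternatives; it called 4.05% of explosion and 8.52% of control barcodes. Mitochondrial UMIs, from 2 ribosomal RNA genes, were 2.61% in explosion and 1.18% in control members.

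Named genes were the 15 with the highest smaller ratio of members over other barcodes in both libraries (at least 20 UMIs in members of each), the 10 highest and 10 lowest explosion over control ratios (at least 50 CPM and 20 UMIs where higher, interval beyond 1.5-fold, without rule genes, antigen receptor, globin, mitochondrial and ribosomal protein genes), and genes of the lists that reached 20 UMIs. Csf1r to Clec4a3 and other sparse subset genes were named after their values were seen. Of 445 list entries, 440 matched, 2 of them under another symbol. Programs were tested on simulated counts.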

Additional observations from a re-analysis of the deposited data

How the results depend on the processing

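No paired analysis was possible because each group had 1 library and no test was run; leaving out a replicate was impossible for the same reason. The share difference of 0.272 percentage points was 0.627 among barcodes with at least 500 UMIs, -0.0116 with at least 3 markers (8 explosion and 16 control barcodes) and -0.0240 with no marker share minimum and class II at 1% of UMIs, and kept its direction in the other settings tried (0.144 to 0.284). The type 1 share of type 1 and type 2 members differed by 4.74 points (explosion minus control), but by -2.00 with a marker share of 0.2%, -2.82 with class II at 1% of UMIs and -33.3 after thinning to 500 UMIs (4 of 12 explosion and 4 of 6 control members); the cause was not tested. Genes past 2-fold higher and lower, 183 and 334, were 27 and 176 with at least 50 UMIs and 40 and 91 after thinning members to 500 UMIs, where fewer genes were measured. Higher genes numbered 481 with at least 20 UMIs in both libraries together, 90 without Zbtb46 and Fscn1 as markers, 92 in members without macrophage UMIs and 100 with class II at 1% of UMIs. Higher genes were 35.4% of calls, but 21.6% with the median gene scaling and 57.3% with at least 20 UMIs together. Of 418 gene ratios recomputed under 11 alternatives, 374 stayed within their interval, 44 left it and 0 of those past 2-fold turned round, while smaller ones did: RT1-DMb (log2 ratio 0.22) was -0.66 after thinning and -0.12 with the median gene scaling, and Basp1 (-0.15) was 0.30 after thinning and 0.70 in members without macrophage UMIs. The median log2 ratio of the monocyte list, 2.01, was -0.78 with at least 50 UMIs and -0.16 without macrophage UMIs; of the other list medians past 2-fold none turned round. Class II at 1% of UMIs, with or without the share minimum, and equal weights for members were added after the data were seen. A count of 0 in members allows up to 3 UMIs of 64820 in the explosion and 155683 in the control library.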

Other observations

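The nuclear 45S ribosomal RNA precursor Rn45s had 133 UMIs in explosion members (2052 CPM) and 21 UMIs in control members (135 CPM), a ratio of 15.2 (9.56 to 25.4). The ratio was 34.2 in B cell, 34.4 in T cell and 23.0 in macrophage barcodes, and 34.5 in all other barcodes. It was below the highest 10 ratios over all members.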
